A study of Mus musculus with 8 samples.

Results

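The genes described here are the zinc finger protein genes of the mouse whose symbol is Zfp followed by a number, leaving out Zfp42 and Zfp57. They were taken from the gene annotation of the array's probes, and a probe counted when its detection p-value was under 0.05 on at least 2 of 8 arrays. Of 303 such genes with 554 probes on the array, 203 genes with 299 probes met this rule and 100 did not, among 10930 genes with a detected probe in all. The threshold fell in a thinly filled range, since 11 of the 554 probes were detected on exactly 2 arrays, 26 on 1 array, 229 on none and 241 on all 8. The rule used names and detection, not the tests reported below. Detection was counted over all 8 arrays, and 9 members undetected with the control hairpin, shGFP, entered through arrays of the other groups alone. For such genes, entry and change are not independent.

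Most proteins with a Zfp symbol carry fingers of the C2H2 type, in which a pair of cysteines and a pair of histidines hold a zinc ion and the finger reads a few bases of DNA. A large subfamily also carries a KRAB domain, which recruits the co-repressor Trim28 (KAP1) and with it the histone methyltransferase Setdb1, so that chromatin at the bound site gains H3K9 trimethylation. In embryonic stem cells these proteins are best known for silencing endogenous retroviruses and for keeping methylation at imprinted loci, and many of their genes lie in tandem clusters. Other members act in RNA decay, protein modification or the cell cycle, so a shared symbol is no shared function.

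The cells were E14 embryonic stem cells, a line from the mouse blastocyst, grown with 15% serum and leukaemia inhibitory factor. All groups were transfected with a short hairpin RNA and selected with puromycin for 3 days. The control hairpin, shGFP, is directed at a gene mouse cells lack, and the hairpins shDnmt3L1, shDnmt3L2 and shDnmt3L3 are directed at Dnmt3l, which stimulates the de novo DNA methyltransferases and has no catalytic activity of its own. Each group had 2 arrays, and total RNA of whole cultures was measured. The labels do not say whether the arrays of a group came from separate cultures, so every p-value reflects only how far duplicate arrays lay apart, and that spread may be technical. No sequence of a hairpin was used here, and off-target effects of a single hairpin cannot be told apart from effects of Dnmt3l in that group.

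The median raw signal of an array lay between 96.1 and 104, and 18111 to 19241 probes per array were detected. The number of Zfp genes detected per array lay between 185 and 199. Across the 203 Zfp genes, normalized log2 intensities correlated at 0.990 to 0.994 between the arrays of a group, at 0.964 to 0.989 between hairpin groups and at 0.951 to 0.975 between shGFP and hairpin arrays. Dnmt3l read 11.87 and 11.97 with shGFP and between 9.19 and 10.84 on the 6 hairpin arrays, and 36.8%, 45.4% and 15.8% of the control level remained with shDnmt3L1, shDnmt3L2 and shDnmt3L3. All 10 embryonic stem cell markers looked at were detected on all 8 arrays, while Gata4, Gata6, Sox17, Foxa2, Cdx2, Elf5, Hand1, Pax6, Sox1, Neurog2, Col1a1, Col1a2, Twist2, Lum and Dcn were detected on none. Of the markers of other cell types, Dab2, Sox7, Thy1, Twist1, Nes and Krt8 were detected on all 8 arrays and Krt7 on 7. Over the hairpins Krt7 rose by 1.29 on the log2 scale, Thy1 by 0.97, Dab2 by 0.97 and Krt8 by 0.23. Sox7 fell by 0.22, while Twist1 (-0.02) and Nes (0.23) did not pass.

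To show what lies before the start sites of members that changed, the promoter windows of the largest falls and the largest rises with a window in the RefSeq table of GRCm38.p6 are printed 5′ to 3′ on the gene's strand. A window runs from 250 bases before to 50 bases after the annotated start, and capitals mark CpG dinucleotides, the bases that DNA methyltransferases act on. Where a gene had several windows, the one with most CpGs was taken.
Zfp459, chr13:67421369-67421668, minus strand: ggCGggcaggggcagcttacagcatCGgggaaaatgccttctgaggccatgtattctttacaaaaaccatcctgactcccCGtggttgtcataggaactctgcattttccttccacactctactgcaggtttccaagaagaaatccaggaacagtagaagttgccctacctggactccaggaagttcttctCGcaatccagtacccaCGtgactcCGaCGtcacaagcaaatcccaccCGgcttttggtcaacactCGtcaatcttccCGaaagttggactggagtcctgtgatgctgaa
Zfp428, chr7:24506837-24507136, plus strand: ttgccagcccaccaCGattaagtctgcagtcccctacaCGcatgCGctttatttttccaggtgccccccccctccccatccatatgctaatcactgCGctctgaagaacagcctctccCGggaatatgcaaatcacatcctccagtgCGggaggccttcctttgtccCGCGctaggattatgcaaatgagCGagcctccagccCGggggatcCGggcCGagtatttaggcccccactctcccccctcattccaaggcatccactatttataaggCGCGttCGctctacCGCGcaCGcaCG
Zfp974, chr7:27929409-27929708, minus strand: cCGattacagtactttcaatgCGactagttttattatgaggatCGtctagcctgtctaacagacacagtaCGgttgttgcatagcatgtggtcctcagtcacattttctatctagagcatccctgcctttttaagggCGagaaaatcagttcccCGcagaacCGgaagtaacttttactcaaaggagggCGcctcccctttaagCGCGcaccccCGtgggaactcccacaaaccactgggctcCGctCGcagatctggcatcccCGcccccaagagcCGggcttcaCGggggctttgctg
Zfp28, chr7:6383068-6383367, plus strand: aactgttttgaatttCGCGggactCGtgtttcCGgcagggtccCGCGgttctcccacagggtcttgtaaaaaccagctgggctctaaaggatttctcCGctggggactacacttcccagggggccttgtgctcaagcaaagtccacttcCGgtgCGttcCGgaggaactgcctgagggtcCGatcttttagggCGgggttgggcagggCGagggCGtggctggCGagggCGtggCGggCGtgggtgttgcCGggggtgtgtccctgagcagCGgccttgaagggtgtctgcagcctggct
Zfp459 has 10 CpGs in its window, Zfp428 has 19, Zfp974 has 16 and Zfp28 has 20. The window of Zfp428 also holds the octamer ATGCAAAT 2 times, counted on both strands. That motif, to which POU factors such as Oct4 bind, occurs in 1.74% of all 32851 windows of this length and 2 or more times in 35 of them. A match of letters is no binding site, and no methylation was measured on these arrays.

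A window was listed for 164 of the 203 Zfp genes. Their windows held a median of 17 CpGs, and those of the other measured genes a median of 22. The members' median GC content was 56.7% and that of the other genes 62.0%, and the observed-to-expected CpG ratio was 0.723 against 0.781. Among the members, the median was 18.5 CpGs for genes called higher over the 3 hairpins, 16 for genes called lower and 17 for genes not called. The middle 50% of the members ran from 11.8 to 23.2 CpGs, and the difference between these medians was not tested. The octamer was found in 5 of the 164 windows (3.05%) and in 1.29% of the windows of other genes. At least 1 CG stood in 94.6% of all windows in the table.

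The comparison of shGFP with the 3 Dnmt3l hairpins asks which of these genes changed when Dnmt3l was lowered. Over the mean of the 3 hairpin groups, 30 of the 203 Zfp genes were higher and 50 were lower than with shGFP. The largest rise was that of Zfp362 and the largest falls were those of Zfp459 and Zfp428. By fitted values 3 members rose (Zfp362, Zfp974 and Zfp28) and 7 fell by at least 1.5-fold, but Zfp974 was not above background with shGFP and its rise is shown only to be at least 1.33-fold. The median size of a called change was 0.38 upward and -0.42 downward on the log2 scale. The test was limma's moderated test on 8 arrays, with Benjamini-Hochberg adjustment over 10930 genes and a call at an adjusted p under 0.05.

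Read against all genes tested, the members were called less often upward and about as often downward. All genes were called in 52.2% of cases, 27.5% higher and 24.7% lower. The members' shares were 39.4% in all, 14.8% higher and 24.6% lower. At 1.5-fold or more, 7.74% of all genes were called higher and 4.71% lower, against 1.48% and 3.45% of the Zfp genes. All 6 hairpin arrays lay above both shGFP arrays for 26 members (12.8%; 21.4% of all genes) and below both for 42 members (20.7%; 19.9% of all genes). These shares describe the family, and no test of the family as a whole was made.

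The split between rises and falls depended on the scaling. With each array scaled to its median in place of quantile normalization, 42 members were called higher and 33 lower, so the share of falls among the calls went from 62.5% to 44.0%. That scaling moved the median of all genes by 0.07 upward and their own share of falls from 47.4% to 36.2%, so the members' calls leaned further to falls than those of all genes under both scalings. With the hairpin as a random block, which treats the arrays of a group as correlated (0.691 over all genes), only Zfp362 and Zfp459 remained called among the members, and 2.96% of all genes. Dnmt3l itself had an adjusted p of 0.052 in that fit.

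**Figure D1:**
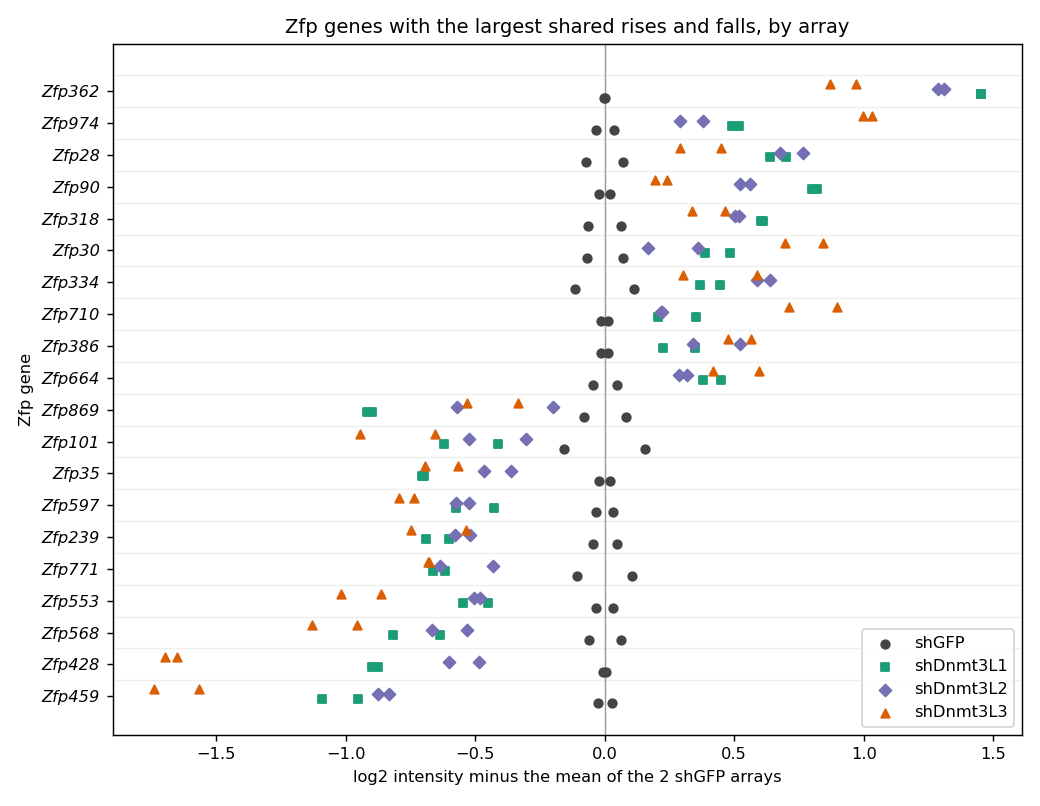
Normalized log2 intensity of 20 Zfp genes on each of the 8 arrays, minus the mean of the 2 shGFP arrays of that gene. Symbols mark the group, and the 10 largest rises stand above the 10 largest falls. The 20 genes were chosen among called members whose 6 hairpin arrays all lie on 1 side of both shGFP arrays.

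Zfp362 read 6.85 and 6.86 on the shGFP arrays, 8.31 and 8.31 under shDnmt3L1, 8.17 and 8.15 under shDnmt3L2, and 7.83 and 7.73 under shDnmt3L3. All 6 hairpin arrays were high, and the groups did not overlap. Its mean rise was 1.22 ± 0.06 (log2 ± SE, here and below; 2.34-fold; limma, adjusted p = 4.08e-06). Zfp362 was the member with the largest rise with shDnmt3L1 (1.45) and with shDnmt3L2 (1.30), and it rose by 0.92 with shDnmt3L3. The hairpin groups differed from each other in it (F test in limma, adjusted p = 0.00144).

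Zfp28 and Zfp90, both of the KRAB type, also rose with each hairpin. Zfp28 read 7.72 and 7.58 on the shGFP arrays, 8.29 and 8.35 under shDnmt3L1, 8.33 and 8.41 under shDnmt3L2, and 8.10 and 7.94 under shDnmt3L3. Zfp90 read 7.42 and 7.37 on the shGFP arrays, 8.20 and 8.22 under shDnmt3L1, 7.92 and 7.96 under shDnmt3L2, and 7.59 and 7.64 under shDnmt3L3. In both genes shDnmt3L3 stood nearest to the control. The mean rises were 0.59 ± 0.07 for Zfp28 (adjusted p = 0.000271) and 0.52 ± 0.06 for Zfp90 (adjusted p = 0.000153).

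Zfp974 was not detected on either shGFP array and was detected on all 6 hairpin arrays, so its control level is only a bound. It read 4.60 and 4.67 on the shGFP arrays, 5.13 and 5.16 under shDnmt3L1, 4.93 and 5.01 under shDnmt3L2, and 5.67 and 5.63 under shDnmt3L3. The rise was at least 1.33-fold over the 3 hairpins (adjusted p = 7.96e-05) and at least 1.75-fold with shDnmt3L3. A bound sets the hairpin mean against, per shGFP array, the higher of the gene's own value and the lowest normalized value among detected probes. Zfp386 was likewise undetected with shGFP and rose at least 1.13-fold. Both genes met the detection rule only through hairpin arrays, where they are high, so their rises are not independent of that rule.

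The other rises named by size lay between 0.41 and 0.51. Zfp318, known from B cells for its part in making membrane IgD, rose by 0.51 ± 0.07, from 7.97 and 8.10 with shGFP to between 8.38 and 8.65 on the hairpin arrays. Zfp30, a KRAB member, rose by 0.49 ± 0.08, with shGFP at 6.66 and 6.52 and shDnmt3L3 highest at 7.43 and 7.29. Zfp334 (0.49), Zfp710 (0.43) and Zfp664 (0.41) completed the 10 largest, and Zfp710 with shDnmt3L3 rose by 0.80. To be named, each of these genes had to be higher on 6 of 6 hairpin arrays. Even so, Zfp30 and Zfp710 did not pass with shDnmt3L2 alone (0.26 and 0.22).

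Zfp459, a gene of the zinc finger cluster on chromosome 13, had the largest fall. It read 8.64 and 8.58 on the shGFP arrays, 7.52 and 7.66 under shDnmt3L1, 7.74 and 7.78 under shDnmt3L2, and 7.05 and 6.87 under shDnmt3L3. The mean change was -1.18 ± 0.07 (adjusted p = 9.15e-06), which left 44.3% of the control intensity after background correction. It was the member with the largest fall with shDnmt3L1 (-1.02) and with shDnmt3L2 (-0.85), and with shDnmt3L3 the change was -1.65. No array of a hairpin group reached the shGFP range.

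Zfp428 read 9.15 and 9.16 on the shGFP arrays, 8.25 and 8.28 under shDnmt3L1, 8.67 and 8.55 under shDnmt3L2, and 7.46 and 7.50 under shDnmt3L3. The 4 groups were fully separate, in the same order as the remaining Dnmt3l of each group. How many genes followed that order was not counted, and a link to the amount of Dnmt3l was not tested. Its mean change was -1.03 ± 0.06 (adjusted p = 8.54e-06), and with shDnmt3L3 it was -1.67, the largest fall of a member with that hairpin. The hairpin groups differed in Zfp428 (F test, adjusted p = 3.83e-05).

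Zfp568, a KRAB protein that silences a placental transcript of Igf2, read 6.03 and 5.90 with shGFP and 5.33, 5.15, 5.30, 5.44, 5.01 and 4.84 on the hairpin arrays in the order of their numbers. All 6 were lower, and the mean change was -0.79 ± 0.08 (adjusted p = 0.000107). Zfp553 fell by 0.64 and Zfp771, its neighbour on chromosome 7, fell by 0.62. Zfp239, also known as Mok2 and able to bind DNA and RNA, fell by 0.61, from 7.81 and 7.72 to between 7.02 and 7.25. Zfp597, whose human counterpart is imprinted, fell by 0.61, from 7.80 and 7.73 to between 6.97 and 7.34. Zfp35 (-0.58), Zfp101 (-0.58) and Zfp869 (-0.57) completed the 10 largest falls. Each of the 10 was lower on 6 of 6 hairpin arrays, which was a condition for being named, and each passed with every hairpin.

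The remaining called members changed less. The 30 rises ran from 0.23 to 1.22 and the 50 falls from -1.18 to -0.19. The 123 members that did not pass had changes between -0.44 and 0.39 with a median of -0.02. Bulk RNA of a culture cannot tell fewer cells of a type from less RNA per cell.

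With each hairpin alone, the members were again called less often than all genes. With shDnmt3L1, 70 members were called (34.5%; 47.9% of all genes), 28 higher (13.8%; 25.2%) and 42 lower (20.7%; 22.6%). With shDnmt3L2, 59 were called (29.1%; 39.2%), 29 higher (14.3%; 20.8%) and 30 lower (14.8%; 18.3%). With shDnmt3L3, 97 were called (47.8%; 52.2%), 32 higher (15.8%; 27.1%) and 65 lower (32.0%; 25.1%). Thus shDnmt3L3, the hairpin with least Dnmt3l left, was the one in which falls of members were above the share of all genes. The 3 comparisons share the same shGFP arrays and are not independent. Under median scaling the share of falls among the members' calls went from 60.0% to 33.3% with shDnmt3L1, from 50.8% to 29.0% with shDnmt3L2 and from 67.0% to 55.7% with shDnmt3L3. The corresponding shares over all genes were 33.8%, 33.6% and 41.9% under that scaling, so only with shDnmt3L3 did the members' calls then lean further to falls.

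The shift of the family against the other detected genes was small and depended on the hairpin. The median log2 change of the 203 members was -0.06 over the mean of the hairpins, and that of the other 10727 genes was 0.0070. With shDnmt3L1 the members' median was -0.06 against 0.01. With shDnmt3L2 the members' median was 0.03 and that of the others 0.0044. With shDnmt3L3 it was -0.13 against 0.0044, and 134 of 203 members (66.0%) lay below 0, compared with 49.3% of the others. With shDnmt3L2 the share below 0 was 45.3%, and the shift there was -0.0001 without shGFP replicate 1 and -0.0011 without shDnmt3L2 replicate 1, so it has no settled direction.

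The same shift by array shows its error. Relative to the other genes, and to each gene's own mean over the 8 arrays, the members' median deviation was 0.03 and 0.06 on the shGFP arrays, -0.04 and -0.01 under shDnmt3L1, 0.04 and 0.06 under shDnmt3L2, and -0.08 and -0.07 under shDnmt3L3. The spread between arrays of a group was 0.02 (SD). The shDnmt3L2 arrays overlapped the shGFP arrays, whereas the shDnmt3L1 and shDnmt3L3 arrays lay below both. Without the shDnmt3L3 arrays the shift over the hairpins went from -0.06 to -0.03, and without the shDnmt3L2 arrays to -0.11.

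**Figure D2:**
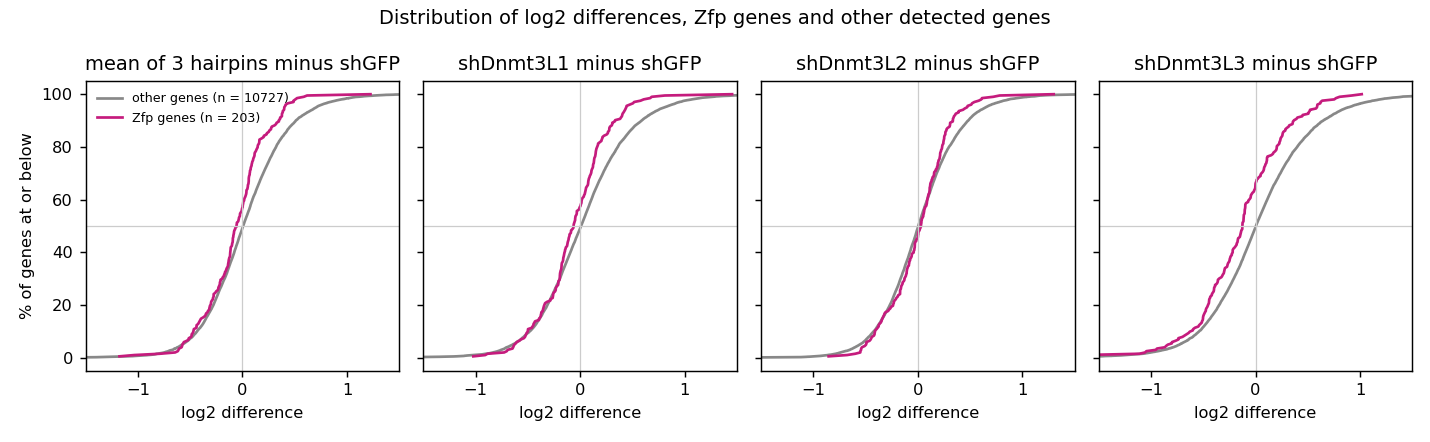
Cumulative share of genes by log2 change against shGFP (x axis, shown from -1.5 to 1.5), for the 203 Zfp genes and the 10727 other genes, in 4 comparisons. To the right of 0 the curve of the Zfp genes climbs sooner, with an upper quartile of 0.10 against 0.26 over the mean of the hairpins and of 0.20 against 0.24 with shDnmt3L2. With shDnmt3L3 it also lies to the left at the median (-0.13 against 0.0044).

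The members' probes tended to be dimmer than those of other genes, so the calls are also given by level. The median normalized level over the 8 arrays was 6.41 for the members (middle 50% from 5.51 to 7.48, highest 10.29) and 6.99 for the other genes (5.45 to 8.71, highest 14.57). A level depends on the probe as well as on the transcript, so it is used here only to split the genes. Of the members, 134 lay below the median of all genes (6.96) and 69 above it.

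Among genes below that median, 12 of 134 members were higher (8.96%) and 34 lower (25.4%), against 24.9% and 20.1% of the other genes. Among genes above it, 18 of 69 members were higher (26.1%) and 16 lower (23.2%), against 30.5% and 29.3%. In both directions together, 34.3% of the members below the median were called against 45% of the other genes. Above it the shares were 49.3% and 59.9%. The shortage of rises stood mostly among dim members, and that of calls as a whole on both sides of the median. With shDnmt3L3 the dim members were higher in 9.70% and lower in 35.1% of cases, against 25.0% and 21.1% of other dim genes. Whether background correction acts differently on dim Zfp probes was not tested. The members' detection was not lower than that of other genes, with 175 of 203 (86.2%) detected on all 8 arrays against 79.9%.

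**Figure D3:**
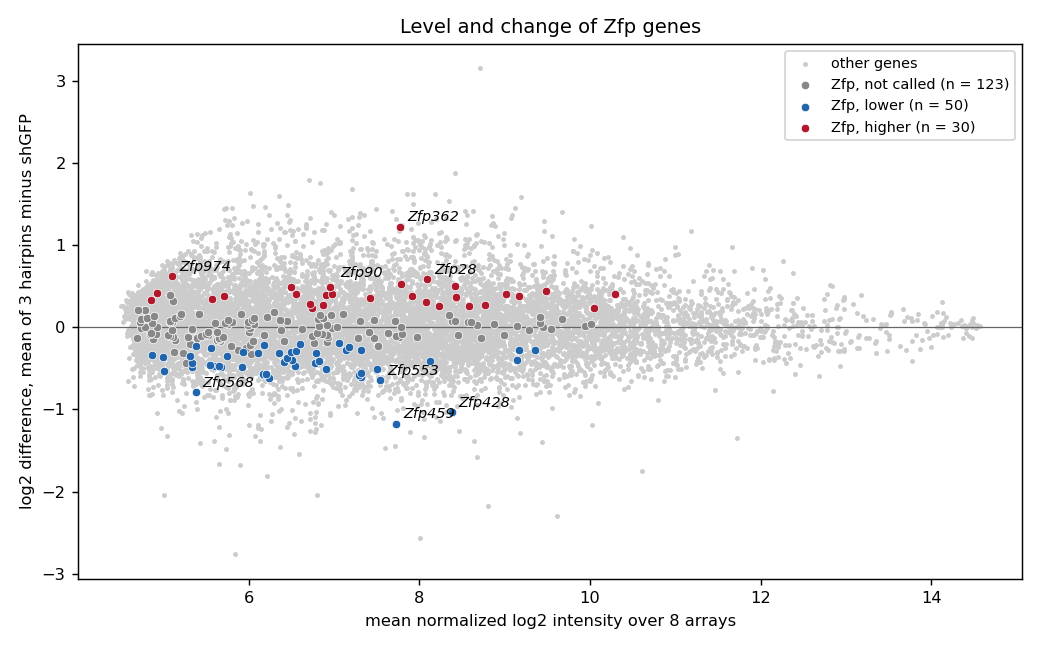
Mean normalized log2 intensity over 8 arrays (x axis) and log2 change over the 3 hairpins against shGFP (y axis), for the other genes (light grey) and the Zfp genes called lower (50), higher (30) or not called (123). Called falls of Zfp genes are spread over dim levels, while Zfp362, Zfp459 and Zfp428, labelled with 5 further genes, stand apart from the rest of the family.

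Comparing the hairpin groups with each other, without the control arrays, 88 members differed (F test in limma, 43.3%; 44.8% of all genes). In 56 of these 88 (63.6%) shDnmt3L3 had the lowest mean of the 3 hairpin groups, whereas among the 4811 other genes that differed it was lowest in 44.3%. In 50 of the 88 (56.8%) shDnmt3L2 had the highest mean, against 29.6% of the other genes. The members' median difference was -0.11 for shDnmt3L3 minus shDnmt3L2 and 0.08 for shDnmt3L2 minus shDnmt3L1, and the other genes' medians were 0.0084 and -0.0049. These shares were computed with quantile normalization only.

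Zfp608, described in thymocytes as a repressor of the recombinase genes Rag1 and Rag2, had the smallest F test p-value. It read 6.09 and 6.16 on the shGFP arrays, 6.87 and 6.75 under shDnmt3L1, 6.92 and 6.88 under shDnmt3L2, and 4.99 and 5.03 under shDnmt3L3. It rose with the first and second hairpins (0.68 and 0.78, each ± 0.08) and fell by 1.11 ± 0.08 with shDnmt3L3, and each of these passed. Over the mean of the hairpins the directions cancelled (0.12 ± 0.06, adjusted p = 0.153). The F test gave an adjusted p of 3.3e-06, the smallest of all members. A second probe of Zfp608 gave smaller changes with the same signs (0.41, 0.29 and -0.40), and another, dim probe gave -0.09, -0.23 and 0.10.

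Zfp644, which works with the H3K9 methyltransferases G9a and GLP, behaved alike on a smaller scale in its brighter probe. It read 8.42 and 8.24 on the shGFP arrays, 8.70 and 8.63 under shDnmt3L1, 8.65 and 8.67 under shDnmt3L2, and 7.76 and 7.97 under shDnmt3L3. Its changes were 0.34, 0.34 and -0.46 with the 3 hairpins, and all of them passed (F test, adjusted p = 0.00044). Another, dim probe of Zfp644 gave 0.12, -0.26 and -0.41, so the rise with shDnmt3L2 rests on 1 probe.

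Zfp819, a KRAB protein that represses transposable elements, fell with shDnmt3L3 alone by the test. It read 8.41 and 8.45 on the shGFP arrays, 8.21 and 8.35 under shDnmt3L1, 8.37 and 8.42 under shDnmt3L2, and 7.42 and 7.32 under shDnmt3L3. The shDnmt3L3 arrays were low, and the other 6 lay within a narrow range. The changes were -0.15 ± 0.08, -0.03 ± 0.08 and -1.06 ± 0.08 (F test, adjusted p = 6.46e-05). Zfp266 fell with shDnmt3L1 (-0.33) and shDnmt3L3 (-0.95) and had 0.04 with shDnmt3L2.

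Zfp207, also called BuGZ and needed for spindle assembly, shows how a value can rest on 1 probe. Its brighter probe read 9.32 and 9.28 with shGFP, 9.51 and 9.58 with shDnmt3L2 and 8.83 and 8.77 with shDnmt3L3, a fall of 0.50 in the last. A second detected probe gave 0.22 with shDnmt3L3. With the probes averaged the change was -0.14 and did not pass (adjusted p = 0.212).

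**Figure D4:**
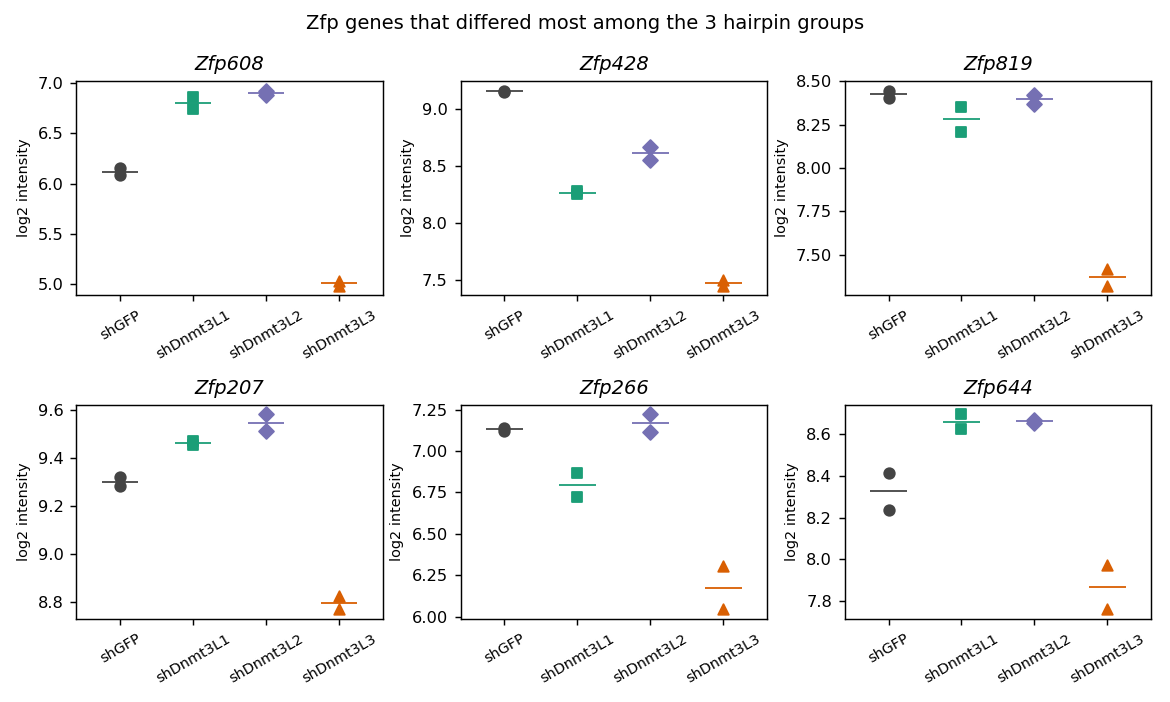
Normalized log2 intensity (y axis) of the 6 Zfp genes with the smallest F test p-value among the 3 hairpin groups, by group, with points for single arrays and bars for group means; each panel has its own range that does not start at 0. In all 6 genes both shDnmt3L3 arrays are the lowest of the 8, and in Zfp608 the shDnmt3L1 and shDnmt3L2 arrays are above shGFP.

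Of the 203 members, 15 were undetected on both arrays of at least 1 group: 9 with shGFP, 2 with shDnmt3L1, 4 with shDnmt3L2 and 7 with shDnmt3L3. Those undetected with shGFP met the detection rule through hairpin arrays alone, and Zfp974, Zfp386 and Zfp960 among them are counted in the 30 rises. Besides Zfp974 and Zfp386, Zfp960 was undetected with shGFP and rose at least 1.27-fold with shDnmt3L3, where both arrays detected it. Zfp397 rose at least 1.2-fold with shDnmt3L2 and Zfp467 at least 1.13-fold with shDnmt3L1, both from undetected control arrays. In the other direction, Zfp78 was undetected with shDnmt3L2 and at least 1.5-fold lower there. Zfp398 and Zfp521 were undetected with shDnmt3L3 and at least 1.22-fold and 1.23-fold lower there, and Zfp521 is a relative of Zfp423 in blood and fat cell development.

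Where the used probe was called, most other probes of the member had its sign. More than 1 detected probe was present for 79 members, and the used probe was called in 35 of them. Of their 41 other probes, 36 had the same sign (87.8%), 20 were called in that direction and 0 were called in the opposite one in this limma fit over 17301 probes (also 0 at an unadjusted p under 0.05). In that fit 42 of 299 member probes were higher (14%) and 71 lower (23.7%), against 23.7% and 24% of all probes. Where the used probe was not called, another probe was called against its sign in Zfp2, Zfp277, Zfp326, Zfp369, Zfp825 and Zfp865. It was called with the same sign in Zfp251, Zfp296, Zfp367, Zfp410, Zfp638, Zfp746 and Zfp82. The used Zfp326 probe gave 0.15 over the hairpins, and its other probes gave -0.56 and -0.48. Among named members, the second probe gave a smaller log2 change that still passed for Zfp568 (-0.30) and Zfp428 (-0.49), and one that did not pass for Zfp334 (0.22), Zfp386 (0.19), Zfp423 (-0.06) and Zfp78 (-0.04). Zfp664 had 0.58 in a second bright probe and -0.09 in a dim one, and Zfp869 had -0.53 and -0.15. Cluster genes can be near-identical in sequence, and whether a probe also read a related gene was not tested.

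Members with a described role were grouped into lists. Of 16 listed repressors of retroelements or imprinted loci, 8 were measured, 0 were higher and 4 were lower over the 3 hairpins: Zfp459 (-1.18), Zfp568 (-0.79), Zfp819 (-0.41) and Zfp961 (-0.22). At an unadjusted p under 0.05 the counts were also 0 and 4. Taken hairpin by hairpin, Zfp819 and Zfp961 passed with shDnmt3L3 alone. Zfp961 had -0.60 there, -0.065 with shDnmt3L1 and 0.019 with shDnmt3L2. No gene of this list passed upward with any single hairpin, and with shDnmt3L3 6 of 8 fell. Of all genes tested, 24.7% fell over the hairpins and 25.1% with shDnmt3L3. Zfp809, which recognises the primer binding site of proline tRNA in retroviruses, fell by 0.51 with shDnmt3L3, from 6.97 and 7.11 to 6.58 and 6.48. Zfp445, which acts beside Zfp57 at imprinted loci, fell by 0.37 there. The list's median was -0.22 over the hairpins and -0.56 with shDnmt3L3, beside 0.0057 and 0.0021 over all genes tested. The list was chosen with results of these arrays known, so its direction is no independent evidence.

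Among 12 listed regulators of embryonic stem cells, 7 were measured, 2 rose and 2 fell, close to the 27.5% and 24.7% of all genes. Zfp281, which restrains Nanog and takes part in the exit from pluripotency, fell by 0.40 ± 0.06, from 9.40 and 9.48 with shGFP to 8.66 and 8.62 with shDnmt3L3. This fall rests on 1 probe, since a second Zfp281 probe gave 0.04 over the hairpins, 0.24 with shDnmt3L1 and -0.22 with shDnmt3L3. Zfp553 fell by 0.64. Zfp219 rose by 0.40 and Zfp148, which binds GC-rich promoters, by 0.36. Zfp296, a nuclear protein that aids reprogramming, rose with shDnmt3L2 only by the test (0.52) and had -0.06 and -0.24 with the other hairpins. The list's median was 0.07.

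Of 12 listed members with roles in RNA or ribosomes, 9 were measured, 0 rose and 2 fell over the hairpins (1 and 2 at an unadjusted p under 0.05). These were Zfp106, an RNA-binding protein (-0.31), and Zfp36, tristetraprolin, which brings messages with AU-rich elements to decay (-0.28). Taken hairpin by hairpin, Zfp106 passed with shDnmt3L3 alone (-0.50) and Zfp36 with shDnmt3L1 alone (-0.39). Of 24 listed members of chromatin or transcription complexes, 18 were measured, 3 rose and 3 fell. The rises were Zfp318, Zfp451, a SUMO ligase (0.35), and Zfp292 (0.23). The falls were Zfp91, a ubiquitin ligase (-0.56), Zfp423 (-0.35) and Zfp532 (-0.28). Of these, Zfp423 passed with shDnmt3L1 alone (-0.69) and Zfp532 with shDnmt3L3 alone (-0.66). With shDnmt3L3, 4 of the 18 rose and 8 fell, against 27.1% and 25.1% of all genes. Over the hairpins 27.5% of all genes rose and 24.7% fell.

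The partners that KRAB zinc finger proteins need were measured in the same fit. Of 30 listed genes of the co-repressor and of H3K9 methylation, 21 were detected, 4 rose and 8 fell over the 3 hairpins, with a median of -0.04, while 27.5% of all genes rose and 24.7% fell. Trim28 read 12.60 and 12.51 on the shGFP arrays, 12.26 and 12.28 under shDnmt3L1, 12.70 and 12.68 under shDnmt3L2, and 12.12 and 12.11 under shDnmt3L3. It was low with the first and the last of these hairpins and not with shDnmt3L2, and its mean change was -0.20 ± 0.06 (adjusted p = 0.0209). Setdb1 fell by 0.25 ± 0.08 (adjusted p = 0.0208).

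Cbx3 and Cbx5, 2 of the HP1 proteins that bind the H3K9 mark, fell over the 3 hairpins. Cbx3 read 10.33 and 10.20 with shGFP and between 9.48 and 10.12 on the hairpin arrays, a fall of 0.51, although with shDnmt3L1 alone it did not pass (-0.17, limma, adjusted p = 0.105). Cbx5 fell by 0.39, and Ehmt1, the methyltransferase GLP, by 0.36. Taken hairpin by hairpin, Ehmt1 passed with shDnmt3L3 alone (-0.62). The other falls of the list were Chd3 (-0.22), Pphln1 (-0.21) and Smarcad1 (-0.20). Chd3 passed with no hairpin alone. Pphln1 lay near background, detected on 1 shGFP and 1 shDnmt3L1 array, and passed only with shDnmt3L3, where it was undetected. Smarcad1 passed with shDnmt3L3 alone (-0.685) and had -0.08 with shDnmt3L1 and 0.15 with shDnmt3L2. The rises were Kdm1a, a histone demethylase (0.44), Atf7ip, which stabilises Setdb1 (0.43), Wiz, a partner of G9a and GLP (0.35), and Morc3 (0.22). Morc3 passed with shDnmt3L1 alone. With shDnmt3L3, 2 of the 21 rose and 9 fell, against 27.1% and 25.1% of all genes.

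Zfp genes were unevenly placed on the chromosomes. Chromosome 7 held 53 of the 203, of which 8 rose and 18 fell, with a median change of -0.09, while 27.5% of the other genes of that chromosome rose and 24.0% fell. On chromosome 17, 5 of 21 rose and 5 fell, against 27.4% and 27.2% of its other genes. On chromosome 13, 0 of 15 rose and 4 fell in limma over the 3 hairpins (0 and 5 at an unadjusted p under 0.05), Zfp459 among them, while 31.9% of the other genes of that chromosome rose and 19.6% fell. The medians of chromosomes with at least 5 members ran from -0.18 on chromosome 9 to 0.05 on chromosome 6.

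**Figure D5:**
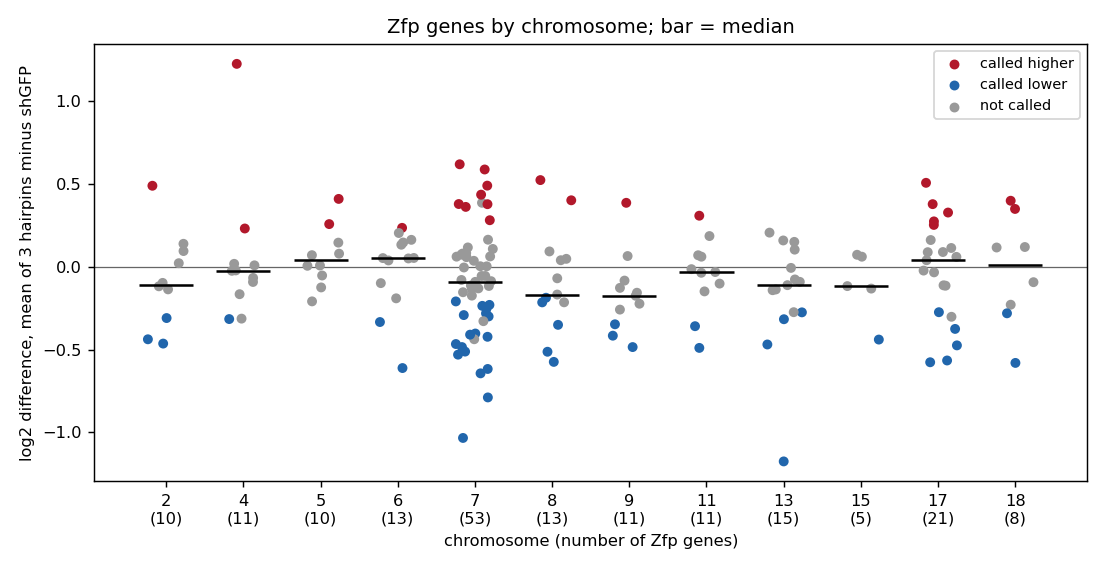
Log2 change over the 3 hairpins against shGFP (y axis) of each Zfp gene, on the 12 chromosomes that hold at least 5 of them (x axis, with the number of genes); points are placed sideways at random, colours mark the call and bars the median. Rises and falls stand on the same chromosomes, and chromosomes 13 and 15 have no called rise.

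Where both of 2 neighbouring members were called, their directions matched about as often as in other neighbours, with only 10 such pairs. In the gene order of GRCm38.p6, 40 pairs of measured members lay next to each other among the measured genes. Both genes were called in 10 pairs, in the same direction in 5 (50%), compared with 1040 of 1791 pairs (58.1%) among other neighbours. Zfp960 and Zfp97, Zfp787 and Zfp444, and Zfp236 and Zfp516 rose together, and Zfp553 and Zfp771, and Zfp266 and Zfp846, fell together. By contrast Zfp28 rose by 0.59 beside Zfp78, which had a change of -0.53. Zfp30 rose by 0.49 between Zfp84 (-0.24) and Zfp790 (-0.49).

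Some markers of other cell types moved in part with the same groups. Of the trophectoderm markers only Krt7 and Krt8 were detected, while Cdx2, Elf5 and Hand1 were not. The log2 of the summed level of 5 trophectoderm markers lay between 8.06 and 8.17 on the shGFP arrays, 8.55 and 8.64 under shDnmt3L1, 8.06 and 8.23 under shDnmt3L2, and 8.54 and 8.56 under shDnmt3L3. That of the fibroblast and feeder markers was between 8.40 and 8.45 with shGFP and reached 9.18 with shDnmt3L1, 8.62 with shDnmt3L2 and 9.29 with shDnmt3L3, through Thy1. That of the primitive endoderm markers was up to 7.66 with shGFP and up to 7.98, 7.87 and 7.59 with the 3 hairpins. Within it Dab2 rose by 1.64 with shDnmt3L1 and 1.20 with shDnmt3L2, while Sox7 fell with both (-0.38 and -0.27) and Gata4, Gata6, Sox17 and Foxa2 were not detected. That of the neural markers was up to 7.40 with shGFP and up to 7.62, 7.73 and 7.32, and that of the stem cell markers lay between 15.32 and 15.48 on all arrays. The last sum rests largely on Dppa5a (14.38 to 14.66) and hides changes of single markers. Of the 10, 2 rose and 2 fell with shDnmt3L1, 3 rose and 1 fell with shDnmt3L2. With shDnmt3L3, Fgf4 (1.09) and Esrrb (0.24) rose, and Pou5f1 (-0.40) and Utf1 (-0.45) fell. The part of these signals in the changes of the Zfp genes was not tested.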

How the data were processed

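Illumina BeadChip arrays of 8 samples were analysed, grouped by the labels. The authors deposited a non-normalized table with a linear intensity per probe and array and an unnamed p-value column beside each, read as its detection p-value. GenomeStudio 2011.1 is named in the submitters' processing notes. A second table of the authors' deposited processed intensity served as an alternative only.

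Intensities were background-corrected from the detection p-values and quantile-normalized with neqc in limma 3.58.1 (R 4.3.3), with an offset of 16 before log2. Each gene was represented by its detected probe with the highest mean, and the probe annotation gave the symbols, all 203 of which RefSeq (GRCm38.p6) keeps. One limma model with 4 group means (4 residual and 4.64 prior degrees of freedom) gave two-sided tests of each hairpin and their mean against shGFP, and an F test among hairpins, adjusted by Benjamini-Hochberg over 10930 genes. The procedure was tested on simulated data. No signal below background has an exact level, and the number of arrays limits the precision.

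The text names the 10 largest shared rises and falls, the 6 smallest F test p-values, the largest change per hairpin, called list members and members undetected in a group. A shared change was one called over the mean of the hairpins with all 6 hairpin arrays on 1 side of both shGFP arrays. Zfp809, Zfp445 and Zfp296, called with 1 hairpin, and pairs of neighbours were named after their values were seen. The members and lists were chosen with earlier results of these data known. Protein features, such as a KRAB domain, were not analysed here, and KRAB type is background knowledge.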

Additional observations from a re-analysis of the deposited data

Results flagged for a closer look

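A difference among the 3 hairpin groups, by limma's F test without the shGFP arrays and after Benjamini-Hochberg adjustment over 10930 genes, was found for 22 of the members named for the size of their change, for their F test or for being undetected in a group. Of all genes tested, 44.8% passed the same test, and of all 203 members 43.3%. Some of the 22 were named because of this same F test, and others for large changes. Their number therefore cannot be set against these shares. The smallest p-values were those of Zfp608 (adjusted p = 3.3e-06), Zfp428 (3.83e-05), Zfp819 (6.46e-05), Zfp207 (0.000187) and Zfp266 (0.000375), in all of which shDnmt3L3 was lowest. In Zfp644 (0.00044) shDnmt3L3 was lowest too. Of the shared falls, Zfp459 (0.000449), Zfp553 (0.00374), Zfp869 (0.017), Zfp568 (0.0175) and Zfp35 (0.0398) differed in size between hairpins, and Zfp869 and Zfp35 fell most with shDnmt3L1.

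Of the shared rises, Zfp974 (0.000452), Zfp710 (0.00179) and Zfp30 (0.00871) rose most with shDnmt3L3. By contrast Zfp90 (0.000873) and Zfp362 (0.00144) rose most with shDnmt3L1, and Zfp28 (0.0229) rose least with shDnmt3L3. Among members undetected in a group, Zfp521 (0.00444), Zfp960 (0.00643), Zfp397 (0.0113), Zfp467 (0.0249) and Zfp398 (0.0473) also differed, at levels near background.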

How the results depend on the processing

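Over 24 alternatives, no called value of Dnmt3l or of a member named by rule changed direction. Of these single-gene values, 722 stayed on their side of the threshold, 28 no longer passed and 2 newly passed. This tally did not follow the direction of the family. With median scaling the members' calls over the hairpins went from 30 higher and 50 lower to 42 and 33. The median of all genes was 0.0735 there. With the hairpin as a random block, 2 members were called in place of 80, both at least 1.5-fold, and Dnmt3l (-1.75) had an adjusted p of 0.052. The 10 members at 1.5-fold or more became 3 without background correction, 3 with an offset of 50 and 19 without the shDnmt3L2 arrays.

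The family's median minus that of other genes, over the mean of the hairpins, was -0.0631, and it became -0.0315 with median scaling, -0.029 without background correction, -0.0383 with an offset of 50, -0.0223 without a detection filter, -0.0827 at a detection p under 0.01, -0.1109 without the shDnmt3L2 arrays and -0.0308 without the shDnmt3L3 arrays. With shDnmt3L1 it was -0.0725, and -0.0261, -0.0328, -0.0477 and -0.0274 under the first 4 of these. With shDnmt3L2 it was 0.0253, and 0.0561 with median scaling and 0.0043 with probes averaged. With shDnmt3L3 it was -0.1296, and -0.0696 without background correction, -0.0938 with an offset of 50, -0.0477 without a detection filter and -0.1514 at a detection p under 0.01. The cause was not tested.

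Leaving out 1 array at a time gave 62 to 80 members called over the hairpins, 52 to 68 with shDnmt3L1, 41 to 56 with shDnmt3L2, 79 to 97 with shDnmt3L3 and 60 to 88 in the F test. The corresponding medians ran from -0.0792 to -0.0374, -0.0887 to -0.0413, -0.0011 to 0.0253 and -0.1436 to -0.1296, so that with shDnmt3L2 the median was below 0 without shDnmt3L2 replicate 1 and, at -0.0001, without shGFP replicate 1. Members at 1.5-fold or more numbered 9 to 14, and the Dnmt3l change ran from -1.7957 to -1.6987.

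Replicate numbers did not pair the arrays, since differences between replicates 1 and 2 correlated at -0.01 to 0.04 between groups. With the replicate block 82, 67, 54 and 93 members were called over the mean, shDnmt3L1, shDnmt3L2 and shDnmt3L3.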

Other observations

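Igf2, whose placental transcript Zfp568 is known to silence, was higher on all 6 hairpin arrays, where Zfp568 was lower. Its single detected probe read 7.16 and 7.26 on the shGFP arrays, 8.99 and 8.96 under shDnmt3L1, 8.29 and 8.21 under shDnmt3L2, and 8.35 and 8.32 under shDnmt3L3. The mean change was 1.31 ± 0.06 (log2 ± SE; limma, adjusted p = 3.83e-06). The order of the hairpins was not that of Zfp568, which was lowest with shDnmt3L3, whereas Igf2 was highest with shDnmt3L1. Which Igf2 transcript the probe reads is not given in the sources used here, and a link between these genes was not tested. Igf2 was chosen after the change in Zfp568 was seen.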
